A study of Capra hircus with 2 samples.

Results

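The miR-15, miR-16, miR-195 and miR-497 family was followed in small RNA of goat endometrium from the receptive phase (R) and the pre-receptive phase (P). Members were all known names of miR-15a, miR-15b, miR-16, miR-16a, miR-16b, miR-195 or miR-497, whatever the species prefix, arm or end annotation. This gave 10 of 587 known names, and 621 predicted candidate names were listed besides. No name of miR-16a was found, and each member was listed once. The animals were multiparous Xinong Saanen dairy goats, 24 months old, brought into oestrus together and mated naturally. The P library came from day 5 of pregnancy and the R library from day 15. For each library, RNA from 9 goats had been combined as 3 pools, and the deposited tables give 1 value per miRNA for each of the 2 libraries. The spread between goats was therefore not measured, and no ratio below has a replicate check or a test.

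Mature miRNAs are cut from a hairpin, whose 5p and 3p arms can each be loaded into Argonaute, and pair with messenger RNAs mainly through the seed, bases 2 to 8. In most tissues the 5p arms of this family are the abundant ones. They share a seed and are known for restraining the cell cycle and for promoting cell death, through targets such as cyclin D1 and BCL2. The hairpins lie in pairs: miR-15a with a copy of miR-16, miR-15b with a second copy of miR-16, and miR-195 with miR-497. In the goat annotation ARS1.2, MIR15A was the direct neighbour of MIR16A, MIR15B of MIR16B, and MIR195 of MIR497. The pair MIR16B and MIR15B lay between SMC4, a condensin subunit gene, and IFT80, a gene of intraflagellar transport, and the pair MIR195 and MIR497 between C19H17orf49 and BCL6B.

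The listed 5p sequences are shown first because the family is defined by their seed, which is in capitals (5′ to 3′, T for U). Of the 5 listed 5p members, 4 shared the seed AGCAGCA.
oar-miR-16b_R+2: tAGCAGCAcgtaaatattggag
oan-miR-15a-5p: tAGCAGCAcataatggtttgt
bta-miR-15b: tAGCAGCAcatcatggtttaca
hsa-miR-195-5p_R-1_1ss16AG: tAGCAGCAcagaaatgttgg
Outside the family, 2 names of 1208 had the same seed. One was hsa-miR-424-5p_R-1, a known relative from another cluster, and the other was the predicted candidate PC-5p-335_2818, which began with all 20 bases of the listed miR-195-5p sequence and had 2 bases more.
hsa-miR-424-5p_R-1: cAGCAGCAattcatgttttga
PC-5p-335_2818: tAGCAGCAcagaaatgttggta
The fifth 5p member carried a different seed, GGCAGCA, since its listed sequence differed from the opossum reference by A2G, counted from the first base of the reference.
mdo-miR-497-5p_R+1_1ss2AG: cGGCAGCAcactgtggtttgtt
Each listed sequence is the read with the highest mapping score of its cluster, per the file headers. Other members differed from their reference by A16G (miR-195-5p), A20G (miR-497-3p) and C10T (miR-16-2-3p), none of them in the seed of the reference. Over the bases present in both, miR-15a-5p and miR-15b were equal at 18 of 21 positions and miR-16b and miR-195-5p at 17 of 20. By the first bases alone, miR-15a-5p and miR-15b were equal for 11.
Conservation was given by the authors as the species in which each precursor name is listed. Of 23 species, 18 had a family member, with miR-16 in any of its forms in 16, miR-195 and miR-497 in 10 each, miR-15b in 9 and miR-15a in 8.

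Values are normalized expression (NE), a signal the authors made from read counts. Its steps are those of reads divided by 1 size factor per library, which is inferred from the values, as the formula given in the methods does not yield them. In the R library the smallest regular step of the values, taken as the worth of 1 read, was 0.860 NE, and in the P library it was 1.16 NE. Of the known entries above 0, 75.0% in R and 80.3% in P were whole steps, and 97.6% in each were whole or midway between whole steps (within 0.002 step), so exact reads were not recovered and no counting interval is given. All 1284 listed entries together came to 1644402 NE in R, or 1912362 steps, and to 4710341 NE in P, or 4050349 steps. These entries hold 1176 distinct sequences, so the totals count some sequences more than once. Family members held 0.548% of this sum in R and 0.188% in P, or 0.621% and 0.221% with each sequence counted once, at the highest of its values. These shares depend on the most abundant names too, as aja-miR-143_1ss22GT alone had 289634 NE in R and 1866274 NE in P.

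miR-16 dominated the family in both libraries. oar-miR-16b_R+2 had 7323 NE in R and 7470 NE in P, which was 81.3% of the family in R and 84.2% in P and ranked 26th and 29th among the 587 known names. Its log2 ratio of R to P was -0.03, which turned to 0.04 once the median of all names was set to 0, to 0.75 with the clean reads of each library as the scale and to 1.49 with the listed reads. This 5p arm was taken as the product of both miR-16 hairpins. No hairpin sequence was used here, so it could not be divided between them. The family as a whole had 9008 NE in R and 8867 NE in P, a log2 ratio of 0.02. On this scale the sum lay as near to 0 as its leading member, while it stood at 0.81 with the clean reads of each library as the scale and at 1.54 with the listed reads.

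**Figure D1:**
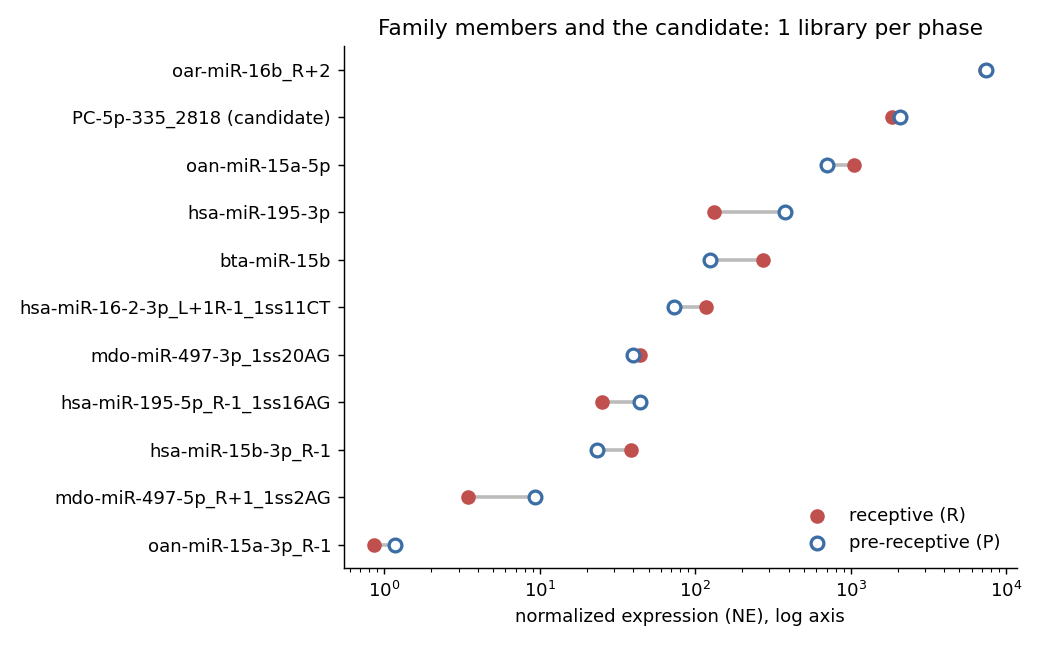
NE of the 10 family members and of the candidate PC-5p-335_2818 on a log axis, with a filled point for the R library and an open point for the P library (1 library each, no error bars). The points of oar-miR-16b_R+2 lie together near 7323 and 7470 NE, bta-miR-15b is further right in R, and hsa-miR-195-3p is further right in P, a log2 ratio of -1.52 that is 0.00 with the listed reads as the scale and -0.05 with each listed sequence counted once.

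Of miR-15a and miR-15b, the hairpin neighbours of miR-16, miR-15b passed 2-fold with the deposited values and miR-15a did not. The other scalings raise every log2 ratio, so neither could go below 0 under them. oan-miR-15a-5p also passed 2-fold with the clean reads (1.36) and with the listed reads (2.10). bta-miR-15b had 274 NE in R and 125 NE in P, a 2.19-fold difference with a log2 ratio of 1.13. Shifting 1 step in each library in opposite directions moved this ratio between 1.12 and 1.15. That range is the effect of 1 step and no counting interval, so how securely miR-15b passed 2-fold was not tested. oan-miR-15a-5p had 1050 NE in R and 703 NE in P, which was 1.49-fold (log2 ratio 0.58). It was the second most abundant member, with 11.7% of the family in R and 7.93% in P. Both 3p arms of the miR-15b and miR-16 cluster lay on the same side of 0. hsa-miR-15b-3p_R-1 had 38.7 NE in R and 23.3 NE in P (log2 ratio 0.73), and hsa-miR-16-2-3p_L+1R-1_1ss11CT, the passenger arm of the second miR-16 hairpin, had 117 NE in R and 73.3 NE in P (log2 ratio 0.67). Summed without the shared miR-16 5p arm, the 15b/16 locus had 430 NE in R and 222 NE in P, a log2 ratio of 0.96, just short of 2-fold. It stood at 1.03, past 2-fold, with the median of all names set to 0. With the clean reads it stood at 1.74 and with the listed reads at 2.47, both past 2-fold. It was 0.01 with the shared miR-16 5p arm added in full. The 15a/16 locus had 1051 NE in R and 704 NE in P, a log2 ratio of 0.58. This ratio was 1.36 with the clean reads, 2.10 with the listed reads and 0.03 with the shared arm added in full. oan-miR-15a-3p_R-1 was listed at 1 step in each library (0.860 NE in R and 1.16 NE in P), too low for a ratio.

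miR-195 and miR-497 have been described as growth-restraining miRNAs. Of their 4 listed names, 3 had log2 ratios below 0 with the deposited values, and these stood at or near 0 or above it with the listed reads. hsa-miR-195-3p had 132 NE in R and 379 NE in P, a 2.86-fold lower value in R with a log2 ratio of -1.52. With 1 step shifted in each library the ratio ran from -1.53 to -1.50. Such a shift, here and below, is no counting interval. It was -0.73 when the clean reads set the scale and 0.00 when the listed reads did, or -0.05 with each listed sequence counted once. The listed 5p arm, hsa-miR-195-5p_R-1_1ss16AG, had 24.9 NE in R and 44.2 NE in P (log2 ratio -0.83, within 2-fold, turning to 0.69 with the listed reads). mdo-miR-497-5p_R+1_1ss2AG was near the limit of detection with 3.44 NE in R and 9.30 NE in P, or 4 and 8 steps. Its log2 ratio of -1.44 passed 2-fold but was -0.65 with the clean reads and 0.08 with the listed reads, and a shift of 1 step in each library moved it between -2.02 and -0.92. mdo-miR-497-3p_1ss20AG had 43.9 NE in R and 39.5 NE in P, with a log2 ratio of 0.15. This ratio was 0.93 with the clean reads and 1.67, past 2-fold, with the listed reads. Together the 4 names had 205 NE in R and 472 NE in P, a 2.31-fold lower sum in R (log2 ratio -1.21, turning to 0.31 with the listed reads). Of this sum, miR-195-3p was the largest part in both libraries.

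The candidate PC-5p-335_2818, which begins as the listed miR-195-5p does, was far more abundant than that arm. It had 1832 NE in R and 2087 NE in P, 73.4 times the listed miR-195-5p in R and 47.2 times in P. Among the 621 candidates it ranked second in R and first in P, and its predicted hairpin had 57 bases. Its log2 ratio was -0.19, turning to 0.59 with the clean reads and 1.33 with the listed reads. Added to the 4 listed names, an alternative chosen after its values were seen, it brought the miR-195/miR-497 sum to 2036 NE in R and 2560 NE in P, a log2 ratio of -0.33 in place of -1.21. The candidate table names its libraries in reverse of the table of differential expression. It was read as in the latter, because all 71 shared entries then had equal values (within 0.006 NE), while 0 were equal under its own labels, which would give the candidate a log2 ratio of 0.19. Whether the candidate comes from the miR-195 hairpin was not tested, as no hairpin or genome sequence was used here.

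The members were then read against all names. Of the 10 members, all were above 0 in both libraries with at least 1 NE in 1 of them, and 1 was higher and 2 were lower in R past 2-fold. Among the 564 names that met the same conditions, 22.9% were higher and 18.1% lower past 2-fold, so that 41.0% passed in either direction, beside 3 of 10 members. The median log2 ratio was 0.06 for the members, miR-15a-3p included, and -0.07 for all names. bta-miR-15b ranked 120th from the highest ratio and hsa-miR-195-3p 46th from the lowest. With at least 10 steps required in each library, 8 members remained and mdo-miR-497-5p_R+1_1ss2AG left the count of lower names.

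**Figure D2:**
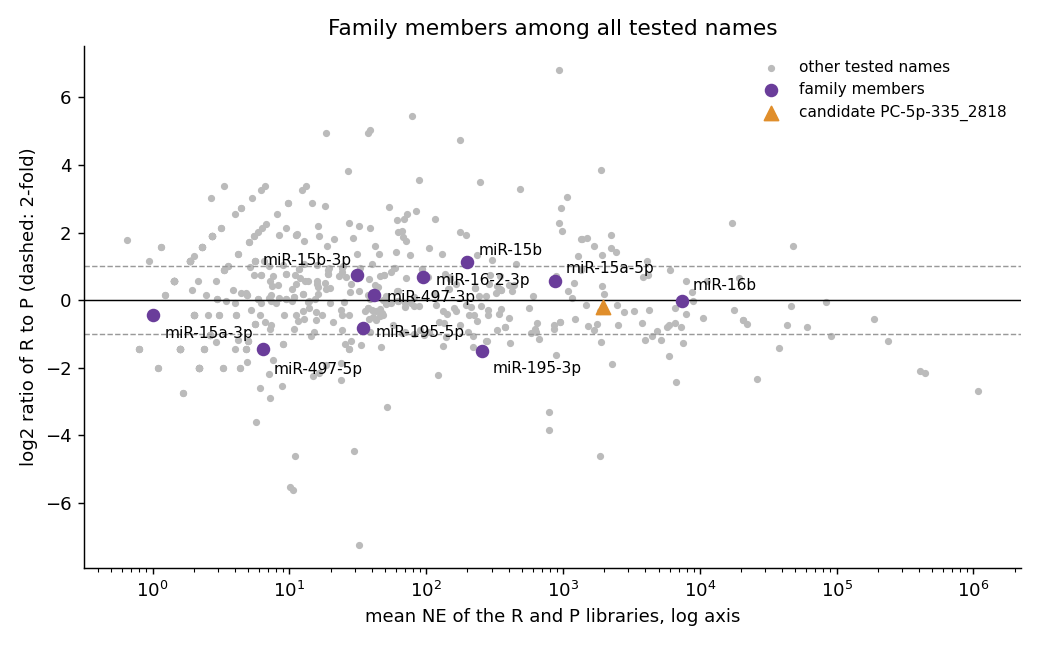
Log2 ratio of R to P against the mean NE of both libraries (log axis) for the 564 tested names (gray), the 10 family members (purple) and the candidate PC-5p-335_2818 (orange triangle), with dashed lines at 2-fold. Members lie inside the spread of the other names, with miR-15b just above the upper line and miR-195-3p and miR-497-5p below the lower line, which they leave for 0.00 and 0.08 with the listed reads as the scale.

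The scaling between the libraries moved every ratio by 1 constant. Scaled to the clean reads, all log2 ratios rose by 0.78, and scaled to the listed reads they rose by 1.52 (1.47 with each sequence counted once), so that the median of all names stood at 0.71 and 1.45. The listed sum leans on the most abundant names, and aja-miR-143_1ss22GT alone had 289634 of 1644402 NE in R and 1866274 of 4710341 NE in P. Of the names past 2-fold, 55.8% were higher in R with the deposited values (129 against 102), 84.8% with the clean reads (234 against 42) and 96.2% with the listed reads (404 against 16). Among the 10 members, 4 were higher and 0 lower past 2-fold with the clean reads, beside 234 and 42 of all 564 names. With the listed reads 7 members were higher and 0 lower, beside 404 and 16 of the 564 names. The count of 7 includes miR-15a-3p at 1 step in each library. miR-15b was higher past 2-fold under the 4 scalings shown, with log2 ratios from 1.13 to 2.65. No other member passed on the same side throughout. Each alternative scaling raised the ratios, so all 129 names higher with the deposited values stay so, and this is no check of miR-15b.

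**Figure D3:**
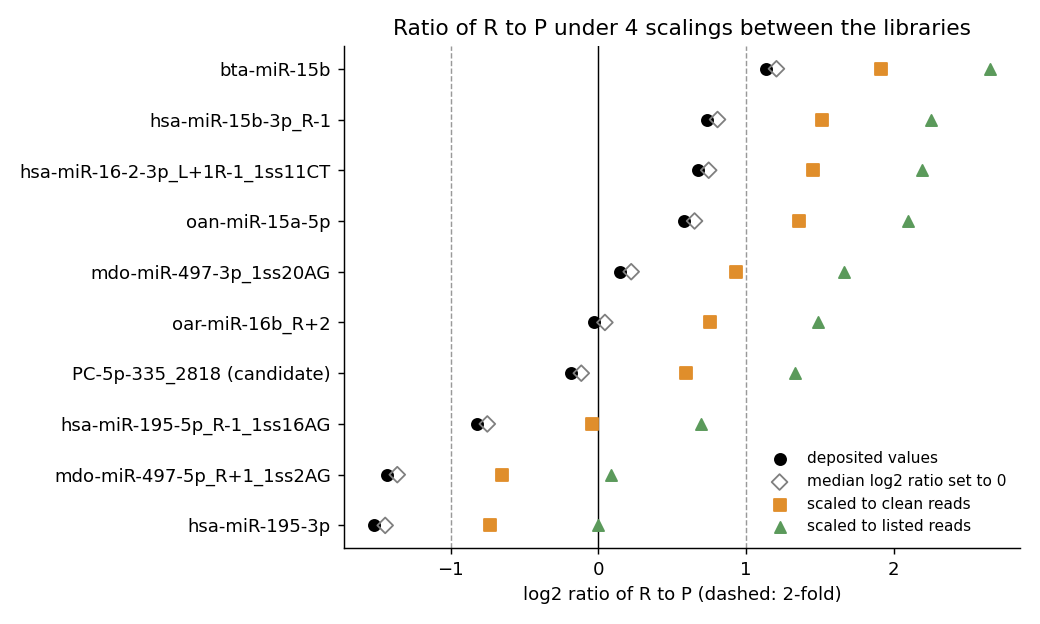
Log2 ratio of R to P of 9 members and the candidate with the deposited values, with the median of all names set to 0, and with the clean or the listed reads as the scale. Each scaling shifts all points alike to the right, so bta-miR-15b stays to the right of the 2-fold line, and hsa-miR-195-3p moves from -1.52 to 0.00.

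Comparisons within a library do not depend on this scaling, and 12 pairs of arms, members and loci were set beside each other in this way. Another 5 pairs, with the candidate, were added after its values were seen. The 15b/16 locus, without the shared arm, had 2.10 times the NE of the listed miR-195/miR-497 locus in R and 0.469 times in P, a 4.48-fold shift. With the candidate counted in the miR-195/miR-497 locus, the shift was 2.44-fold. Against the same listed locus, 15a/16 went from 1.49 times in P to 5.13 times in R, a 3.44-fold shift that became 1.88-fold with the candidate. Between the loci of miR-15b and miR-15a the shift was 1.30-fold, toward 15b/16 in R. Among the 5p arms, the ratio of miR-15b to miR-16 shifted 2.24-fold, from 0.0167 of its level in P to 0.0375 in R. The ratio of miR-15a to miR-16 shifted 1.52-fold, from 0.0941 in P to 0.143 in R. These shifts have no counting error attached and compare the libraries, not the phases.

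The arms of a hairpin were also compared. In miR-15b the 5p arm held 87.6% of both arms in R and 84.3% in P, and in miR-15a it held 99.9% and 99.8%. The shares of miR-15a rest on a 3p arm at 1 step in each library. The 5p arm of miR-16 exceeded miR-16-2-3p 62.6 times in R and 102 times in P. By contrast, the 3p arm led in both hairpins of the third locus as listed. miR-195-3p made up 84.2% of its hairpin in R and 89.6% in P, and miR-497-3p made up 92.7% and 81.0%, a 3.00-fold shift of the arm ratio that rests on 4 and 8 steps of miR-497-5p. With the candidate counted as a 5p arm of miR-195, that order turned, and the 5p arm held 93.3% in R and 84.9% in P. The balance between the 3p arms of the neighbours differed too, and miR-195-3p was 9.59 times miR-497-3p in P and 3.02 times in R, a 3.18-fold shift.

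**Figure D4:**
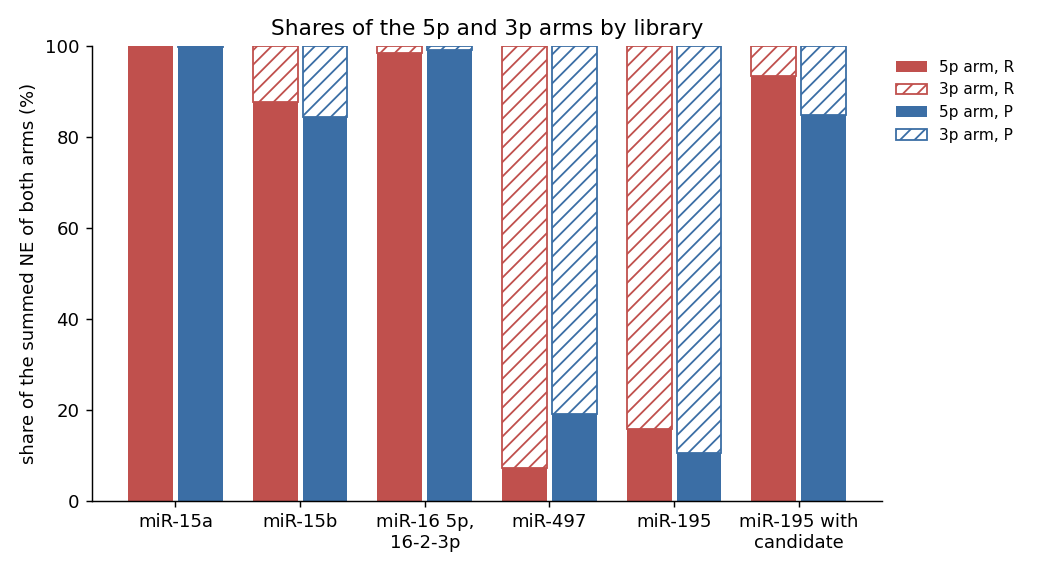
Share of the summed NE of both arms held by the 5p arm (solid) and the 3p arm (hatched) in the R (red) and P (blue) library, for miR-15a, miR-15b, miR-16, miR-497 and miR-195, and for miR-195 with the candidate counted as a 5p arm. For miR-16 the 5p arm is taken as the product of both hairpins and the 3p arm (miR-16-2-3p) as that of 1. These bars are therefore not the arm shares of a hairpin. The 5p arm leads for miR-15a, miR-15b and miR-16, the 3p arm leads for miR-497 and miR-195 as listed, and the 5p arm leads for miR-195 with the candidate.

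All names with the shared seed were added to see how much of it each library held. The 6 names had 12169 NE in R and 12495 NE in P, a log2 ratio of -0.04 that turned to 0.03 with the median set to 0, 0.74 with the clean reads and 1.48 with the listed reads. miR-16 made up 60.2% of this pool in R and 59.8% in P. The candidate followed with 15.1% and 16.7%, and hsa-miR-424-5p_R-1, which is encoded apart from the family, with 13.7% and 16.5%. miR-15a made up 8.63% in R and 5.63% in P, and miR-15b 2.25% and 1.00%.

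Of a list of 6 related miRNAs, miR-424, miR-503 and miR-103 were found under 6 names, both arms included. Of these names, hsa-miR-424-5p_R-1 carries the family seed, and the others carry other seeds. Past 2-fold, 1 of the 6 names was higher and 1 lower, beside 22.9% and 18.1% of all names, with a median log2 ratio of -0.37 that turned to 0.41 with the clean reads and 1.15 with the listed reads. mmu-miR-503-5p, which targets cyclins as the family does, had 26.7 NE in R and 5.81 NE in P (31 and 5 steps), a log2 ratio of 2.20. oar-miR-103_R-1 was the most abundant with 2888 NE in R and 4627 NE in P. Past 2-fold on the lower side, bta-miR-424-5p_L-1R-2_1ss19TA was listed at 1 step or less in each library.

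Other miRNAs of the cell cycle were set beside the family. Of 14 names of the growth-promoting clusters miR-17-92 and miR-106b-25, which hold 12 distinct sequences, 2 were higher and 1 lower past 2-fold with the deposited values, 9 and 0 with the clean reads and 11 and 0 with the listed reads. Their median log2 ratio was 0.62, beside -0.07 for all names, of which 22.9% were higher and 18.1% lower with the deposited values. Of all 564 names, 234 were higher and 42 lower with the clean reads, and 404 and 16 with the listed reads. The name ptr-miR-92_R+2, which has no letter and so was not matched to miR-92a of the list, had a log2 ratio of -1.25 and is named after its value was seen. The growth-restraining let-7, miR-98, miR-34, miR-449 and miR-26 families had 35 names with 32 distinct sequences, and of these names 4 were listed at 0 in P and have no ratio. Of the other 31, 6 were higher and 3 lower with the deposited values, 14 and 1 with the clean reads and 21 and 0 with the listed reads. Their median was -0.09, which turned to 0.70 with the clean reads and 1.43 with the listed reads. With the deposited values most names of both lists lay within 2-fold.

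Marker miRNAs of cell types were also read in both libraries, as the endometrium holds epithelium, stroma, vessels and blood and borders on muscle. In a bulk library fewer cells of a type and less RNA per cell cannot be told apart. Among all 564 tested names, 129 were higher and 102 lower past 2-fold with the deposited values, 234 and 42 with the clean reads and 404 and 16 with the listed reads, and the counts below stand beside these. Of 14 tested epithelial names, 13 were higher in R past 2-fold with the deposited values and all 14 with the clean or the listed reads. The sum of this list was 38636 NE in R and 6997 NE in P. hsa-miR-141-3p_R-1 led this list with 28337 NE in R and 5791 NE in P, while 3 of its 17 names were listed at 0 in P and miR-200b was not found. Of 11 muscle names, 10 were lower in R past 2-fold with the deposited values, 6 with the clean reads and 5 with the listed reads, where 4 names turned above 0. Their sum was 292641 NE in R and 1883323 NE in P (log2 ratio -2.69, and -1.17 with the listed reads), nearly all of it aja-miR-143_1ss22GT (289634 NE and 1866274 NE). No name of miR-206 was found. Of 8 blood names, 2 were higher past 2-fold (5 with the clean or the listed reads), and the sums were 11694 NE in R and 11459 NE in P. In all, the list has 9 names but 7 distinct sequences, as miR-144 is listed under several names, and each sequence was counted once in a sum. Its most abundant name over both libraries was cgr-miR-486-5p with 5052 NE in R and 8073 NE in P, while cgr-miR-142-5p_L-2R+1 was the highest in R with 5689 NE and had 2524 NE in P. No name of miR-150 was found. The endothelial miR-126 had 32841 NE in R and 21288 NE in P, led by hsa-miR-126-5p (23369 NE and 14955 NE). The fibroblast miR-199a and miR-214 had 83388 NE and 85802 NE, led by oar-miR-199a-3p (82015 NE and 84822 NE), and no endothelial or fibroblast name passed 2-fold with the deposited values, while all 5 of each were higher with the listed reads. The part of these cell types in the ratios of the family was not tested.

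Names with a ratio most like that of a member were taken from the 289 names with at least 10 steps in each library, by the absolute difference of the log2 ratio over the 2 libraries. Nearest to bta-miR-15b (1.13) were cgr-miR-142-5p_L-2R+1 (1.17), hsa-miR-153-3p (1.08) and hsa-miR-17-5p (1.08). Nearest to hsa-miR-195-3p (-1.52) were cfa-miR-340_1ss22TA and hsa-miR-340-5p_1ss22TA (-1.44 each) and hsa-miR-145-3p_L-2R+1 (-1.62). The same miR-340 names were nearest to mdo-miR-497-5p_R+1_1ss2AG, followed by oar-miR-181a (-1.41). Nearest to oar-miR-16b_R+2 were bta-miR-199a-3p_R+1_1ss7GT, bta-miR-139 and cgr-miR-139-5p_R+1 (-0.02 each).

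Targets had been predicted by the authors for the names they had called different, so a member without targets was not put to the prediction. The target table paired 142 names with 7608 identifiers, and bta-miR-15b was the only family member in it. It had the longest list, 1331 identifiers or 17.5% of all, followed by hsa-miR-138-5p with 1228, while the median name had 578.5. A predicted target of miR-15b was also predicted for a median of 16 other names and at most 67, and identifiers not predicted for miR-15b had a median of 7 names. For miR-15b alone, 18 identifiers (1.35% of its list) were listed. None of the 7608 identifiers matched a gene or accession of the goat annotation, and the target table gives no symbols, so known targets such as cyclin D1 were not looked up.

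The overlap of the miR-15b list with those of other names is given as a share of each list. The 3 names with the largest part of its list were hsa-miR-153-5p_L+1_2ss15G-16TC, with 332 identifiers (24.9% of the miR-15b list and 30.0% of its own), hsa-miR-138-5p, with 324 (24.3% and 26.4%), and PC-5p-94605_6, with 312 (23.4% and 26.1%). As a share of the other name's own list, the overlap had a median of 28.1% over the other names and a range from 19.4% to 44.0%. The upper end was mmu-miR-503-5p, the relative with the seed AGCAGCG, which shared 226 of its 514 identifiers, 17.0% of the miR-15b list.

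**Figure D5:**
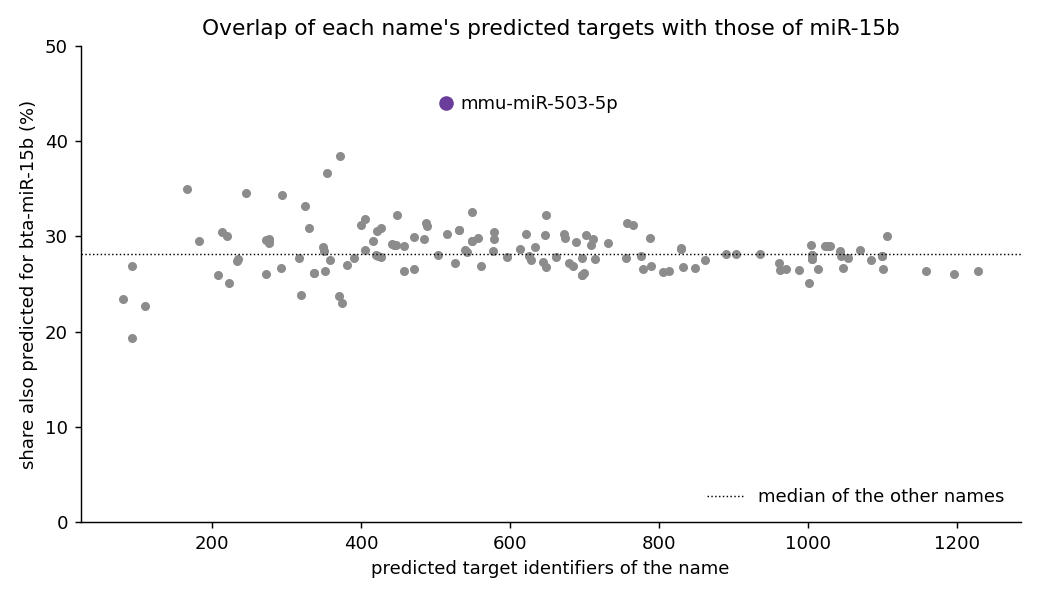
Share of each name's predicted target identifiers that were also predicted for bta-miR-15b, against the number of identifiers of that name, for all other names of the target table. Most names lie near the median of 28.1% (dotted), and mmu-miR-503-5p stands at 44.0%.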

How the data were processed

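Endometrial small RNA of 1 library per phase (R and P) was sequenced, and the authors filtered the reads with ACGT101-miR and matched those of 18 to 26 nt to miRBase precursors by BLAST. The deposited values are a signal, normalized expression (NE), made by the authors from read counts. The stated formula divides by the clean reads alone, which the values do not follow, and division by 1 size factor per library was inferred from their steps. A log2 ratio of R to P was taken for each distinct name above 0 in both libraries with at least 1 NE in 1 of them, and a name was called past 2-fold. Fisher's exact test with exact intervals had been planned on recovered reads. Whole reads could not be recovered, so neither was run, and ratios compare the libraries, not the phases. Ratios at or under 3 steps in both libraries are not given for members. The candidate table was read with its library labels exchanged. The deposited fold changes, log2 values and P-values of the authors' comparison were not used. Targets had been predicted with TargetScan and miRanda. Names described were the members, names with the shared seed, listed seed relatives, the 3 names nearest in ratio to the most abundant and to each called member, and the 3 names sharing most targets. Marker lists covered blood, muscle, epithelium, endothelium and fibroblasts. Members and lists were chosen with earlier results of these data known. Python 3.11.15, numpy 2.4.6 and matplotlib 3.10.9 were used. The code of the 2-fold calls was checked on simulated data, which is no test of a ratio. Listed reads are the sum of all entries, with each sequence counted once as an alternative. Other alternatives covered scaling, filters, pseudocount, repeated names, the shared miR-16 arm, candidate labels and the added candidate.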

Additional observations from a re-analysis of the deposited data

Results flagged for a closer look

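The candidate PC-5p-335_2818 lies outside the table of known names, from which the members were taken, and stood far above the floor of 3 steps. Its level was 1832 NE in R against 2087 NE in P, and the origin of its reads was not tested.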

How the results depend on the processing

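For 29 results, 133 values were computed under other settings, and 75 of them kept their direction and their side of 2-fold, or stayed within 1.5 times for a count. Most of the others came from scaling, which moves all log2 ratios by 1 constant. With the clean reads as the scale, 234 names were higher and 42 lower past 2-fold, and among the members 4 were higher and 0 lower. The log2 ratio was then -0.73 for miR-195-3p, -0.65 for miR-497-5p, 1.52 for miR-15b-3p, 1.36 for miR-15a-5p, 0.75 for miR-16b, 1.46 for miR-16-2-3p and 0.59 for the candidate PC-5p-335_2818. The loci stood at 1.36 (15a/16), 1.74 (15b/16) and -0.42 (miR-195/miR-497). With the listed reads, 404 names were higher and 16 lower, and among the members 7 and 0. The log2 ratio was then 0.69 for miR-195-5p, 0.00 for miR-195-3p, 2.25 for miR-15b-3p, 2.10 for miR-15a-5p, 1.49 for miR-16b, 2.19 for miR-16-2-3p, 0.08 for miR-497-5p, 1.67 for miR-497-3p and 1.33 for the candidate. The loci stood at 2.10, 2.47 and 0.31 in the same order, and the whole family at 1.54. Setting the median of all names to 0 gave 0.04 for miR-16b and 1.03 for the 15b/16 locus. Requiring 10 steps in each library left 51 names higher and 40 lower, since fewer names were tested, and 1 member lower. Adding the shared miR-16 5p arm in full gave 0.03 for the 15a/16 and 0.01 for the 15b/16 locus, since that arm outweighs the rest of each. Settings chosen after seeing the data were listed reads with each sequence counted once, known names alone, 1 step added to each value, the candidate table under its own labels and the candidate counted with miR-195. Counting each sequence once gave 402 names higher and 16 lower, 7 members higher and 0 lower, and log2 ratios of 0.64 for miR-195-5p, -0.05 for miR-195-3p, 2.20 for miR-15b-3p, 2.05 for miR-15a-5p, 1.44 for miR-16b, 2.14 for miR-16-2-3p, 0.03 for miR-497-5p, 1.62 for miR-497-3p and 1.28 for the candidate, with 2.04, 2.42 and 0.26 for the loci and 1.49 for the family. The own labels gave the candidate 0.19. Counting it with miR-195 gave -0.33 for its locus, -0.02 for the family, 1.32 for the log2 shift of the 5p to 3p ratio of miR-195, and 0.91 for that of the 15a/16 to miR-195/miR-497 ratio. Apart from what the scale and the filters do by construction, the cause was not tested. The exact binomial test, the Benjamini-Hochberg adjustment, rounding down of reads and target pairs by transcript were not run, the first 3 because whole reads were not recovered and the last because the transcript column is filled in part. No paired analysis was possible because each phase has 1 library and the results come from no test. Depth limits miR-15a-3p and miR-497-5p, at 1 to 8 steps.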

Other observations

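The listed 3p members carried 5 different seeds, unlike the 5p members. The reference sequences of miR-195-3p and miR-16-2-3p share the seed CAATATT, but the listed miR-16-2-3p begins 1 base earlier, which gives it the seed CCAATAT.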
